A study of Populus alba x Populus glandulosa with 18 samples.

Results

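Roots of a poplar line that overexpressed bHLH151 (bHLH151-OE, line 17, 3 RNA-seq libraries) were compared directly with roots of a line in which bHLH151 was knocked out (bhlh151-KO, line 40, 3 libraries). These 6 libraries were chosen by their genotype labels out of 18, and the difference between the lines has no wild-type value in it; the filter on low values and the spread behind the p-values come from all 18 libraries. All 18 libraries came from root tissue of the hybrid poplar clone 84K (Populus alba x Populus glandulosa), and the other 4 groups of 3 were wild type (WT), bhlh58-KO (line 6), the double knockout bhlh58/151-KO (line 32) and bHLH58-OE (line 20). The series set out to find genes acting before or after these factors in a root phenotype. Each genotype is 1 line, so a genotype cannot be told apart from its line, and no source used here gives how the lines were made, the promoter of the overexpression construct or the age of the plants. Nothing in the labels ties the 3 libraries of a group to separate plants. P-values therefore measure the spread between these libraries, which may be technical.

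Basic helix-loop-helix (bHLH) proteins are transcription factors that bind DNA as dimers, usually at short elements called E-boxes. In Arabidopsis roots, members of the family are known for roles in root hair growth, in the division of vascular cells and in iron uptake. An overexpression line set against a knockout of the same gene contrasts the extremes of its dose. Genes are called by their IDs in the authors' table, for which no source used here gives names. Neither bHLH151 itself nor any marker of a root cell type was therefore examined, and the labels were not checked on the targeted gene. In bulk tissue, fewer cells of a type and less RNA per cell cannot be told apart.

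Values are FPKM, a fragment count divided by transcript length and by library size, and depth is unknown. Of 71159 IDs, the 40951 that reached 1 FPKM in 3 or more of the 18 libraries were tested. IDs at 1 FPKM or more numbered 37104, 37015 and 37041 in the bHLH151-OE libraries and 36450, 36911 and 36515 in the bhlh151-KO libraries. The groups did not overlap in this number, with 428 more IDs on average in bHLH151-OE (exact permutation test, two-sided, p = 0.1, the smallest p that 3 against 3 libraries allow). With median-of-ratios factors the difference was 220.0 IDs. As deposited, both lines had fewer IDs at 1 FPKM or more than every library of the other groups. The means of those groups were 37542 in the double knockout, 38145 in WT, 38415 in bHLH58-OE and 38435 in bhlh58-KO. The 100 most abundant IDs of a library held 9.48% to 10.2% of its FPKM in these 6 libraries, and the groups overlapped. Libraries of the same group differed by a root mean square of 0.260 to 0.292 on the log2(FPKM + 1) scale in bHLH151-OE and 0.251 to 0.292 in bhlh151-KO. Between the groups the 9 library pairs differed by 0.371 to 0.444, above every pair within a group. The distances of bHLH151-OE from the double knockout (0.324 to 0.382) and from WT (0.425 to 0.447) overlapped with its distance from bhlh151-KO. Seen from bhlh151-KO, bHLH151-OE was the nearest group, with a median distance of 0.397. The double knockout followed at 0.436, then bhlh58-KO at 0.491, bHLH58-OE at 0.549 and WT at 0.593. Seen from bHLH151-OE, the nearest group was the double knockout, with a median distance of 0.352. From there bhlh151-KO, at 0.397, was about as far as bHLH58-OE at 0.400 and bhlh58-KO at 0.402, and WT was at 0.436.

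Roots of the bHLH151-OE and bhlh151-KO lines differed in many IDs, mostly by small amounts. In all, 8512 IDs differed between the lines, 20.8% of those tested (limma, Benjamini-Hochberg adjusted p under 0.05). Of these, 4665 (11.4% of tested IDs) were higher in bHLH151-OE and 3847 (9.39%) were lower. The larger side depended on the scaling, since median-of-ratios scaling gave 4178 higher and 4680 lower IDs. The median size of a called difference was 0.48 on the log2(FPKM + 1) scale, with a median of 0.48 for the higher IDs and -0.47 for the lower ones, beside 0.016 over all tested IDs. A difference of at least 2-fold was reached by 360 higher IDs (0.879% of tested IDs) and 251 lower IDs (0.613%), together 611 (1.49%), so 92.8% of the calls were below 2-fold. With a pseudocount of 0.1 in place of 1, 867 higher and 591 lower IDs reached 2-fold and 83.3% of the calls stayed below it. At least 4-fold, a difference of 2 on the log2 scale, was reached by 13 higher and 5 lower IDs. The 3 libraries of each line did not overlap for 8164 of the 8512 called IDs (95.9%), beside 34.3% of all tested IDs. Calls were made on these same libraries, which itself favours no overlap, so this share is a description.

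**Figure D1:**
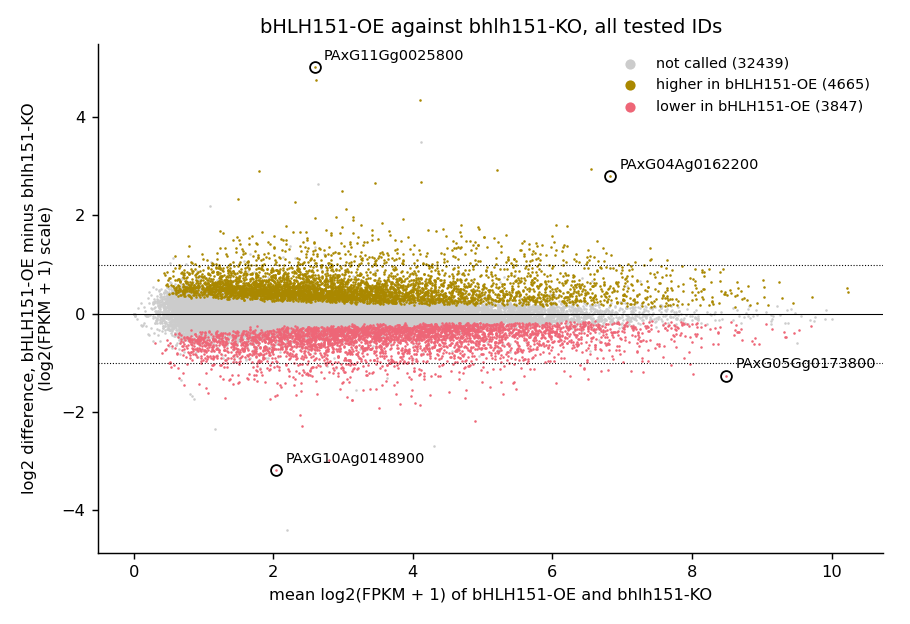
Each point is 1 of 40951 tested IDs, with its mean level in the 6 libraries on the horizontal axis and its difference between bHLH151-OE and bhlh151-KO on the vertical axis, both on the log2(FPKM + 1) scale. Coloured points are the 4665 higher and 3847 lower IDs, dotted lines mark 2-fold, and circles mark the 4 named IDs; most coloured points lie between the dotted lines.

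Abundant transcripts were called more often. Of the 749 IDs with a mean of at least 100 FPKM over the 6 libraries, 239 (31.9%) were higher and 209 (27.9%) lower in bHLH151-OE. Of the 3880 IDs below 1 FPKM, 194 (5.00%) were higher and 112 (2.89%) lower. The standard error moved with the level, from a median of 0.061 in the first of these bands to 0.16 in the second, and its part in the share of calls was not tested. The median size of the difference over all IDs of a band also differed, at 0.25 from 100 FPKM up and 0.17 below 1 FPKM. The balance of directions changed along the scale. From 2 to 5 FPKM 1192 IDs were higher and 630 lower, whereas from 20 to 100 FPKM 827 were higher and 1114 lower. Median-of-ratios scaling, added after the data were seen, left these majorities as they were, with 1053 and 788 in the first band and 737 and 1308 in the second, but gave 215 higher and 236 lower IDs from 100 FPKM up. Among the 100 IDs with the highest means, which spanned 322 to 1218 FPKM, 33 were higher and 28 lower, and a single one of them, lower in bHLH151-OE, differed at least 2-fold.

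**Figure D2:**
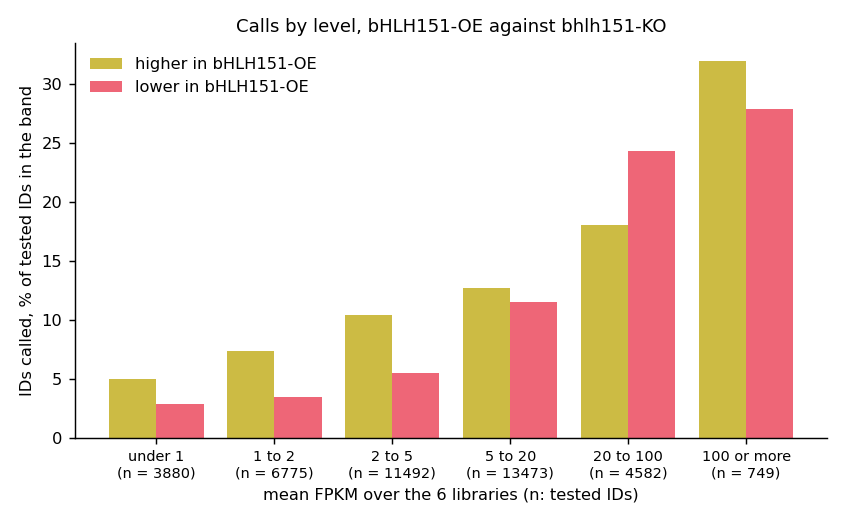
Bars give the percent of tested IDs called higher or lower in bHLH151-OE than in bhlh151-KO, in 6 bands of mean FPKM over the 6 libraries, with the number of tested IDs under each band. The share called rises from 5.00% and 2.89% in the lowest band to 31.9% and 27.9% in the highest.

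Calls were spread over the whole ID set. Most IDs carry a number from 1 to 19 and a letter, A or G, 4823 are named NewGene, and 208 are of other forms, of which 14 were tested and none was called. Calls were made for 20.9% of tested IDs with the letter A, 20.7% with G and 21.1% of the IDs named NewGene. Over the 38 combinations of number and letter, the share called ran from 17.5% for 12 and G to 23.7% for 19 and G. IDs of at least 2-fold difference that followed each other directly among the tested IDs of a combination, in the same direction, formed 19 runs in the higher set and 10 in the lower set. These runs held 40 of 343 and 22 of 218 such IDs, and the longest had 3 IDs in each direction. IDs of at least 2-fold difference were 0.879% (higher) and 0.613% (lower) of all tested IDs. Whether the runs were more than this rarity would give was not tested.

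The levels in the other 12 libraries, which do not enter the difference between the lines, show where each line stood. For the IDs at least 2-fold higher in bHLH151-OE, the median log2(FPKM + 1) level was 4.04, 4.13 and 4.03 in the bHLH151-OE libraries and 2.82, 2.74 and 2.65 in those of bhlh151-KO. The same IDs had medians from 4.23 to 4.30 in WT, 4.04 to 4.08 in bhlh58-KO, 3.98 to 4.21 in the double knockout and 4.18 to 4.39 in bHLH58-OE. The overexpression line thus lay among or slightly below the other groups, and bhlh151-KO alone lay below all of them. These IDs held 3.16% ± 0.032 (SD, n = 3) of all FPKM in WT, 2.51% ± 0.080 in bHLH151-OE, 2.66% ± 0.15 in the double knockout and 0.968% ± 0.050 in bhlh151-KO. The knockout mean was the lowest of the 6 groups for 346 of the 360 IDs (96.1%, beside 36% of all tested IDs). The overexpression mean was the highest for 60 (16.7%, beside 7.75% of all tested IDs). The choice of these IDs by the difference between the lines itself favours a low knockout mean and a high overexpression mean, so these shares are a description.

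For the IDs at least 2-fold lower in bHLH151-OE, the median level was 2.43, 2.50 and 2.34 in its libraries and 3.70, 3.57 and 3.61 in those of bhlh151-KO. WT lay below both, from 1.94 to 2.13, as did bHLH58-OE (2.18 to 2.32), while bhlh58-KO (2.47 to 2.60) overlapped with bHLH151-OE and the double knockout lay between the lines (2.70 to 2.75). The IDs held 0.404% ± 0.044 (SD, n = 3) of all FPKM in WT, 0.563% ± 0.038 in bHLH151-OE, 0.914% ± 0.043 in the double knockout and 1.37% ± 0.041 in bhlh151-KO. The knockout mean was the highest of the 6 groups for 187 of the 251 IDs (74.5%, beside 17.5% of all tested IDs). The overexpression mean was the lowest for 55 (21.9%), close to the 17.9% of all tested IDs. The choice of the IDs favours both shares in the same way.

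**Figure D3:**
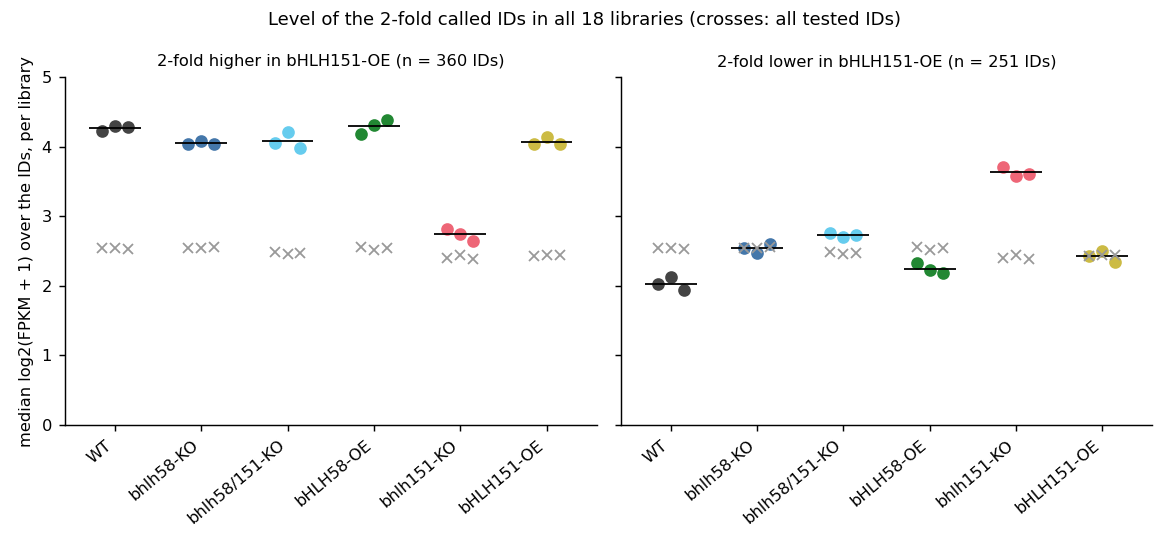
Each dot is the median log2(FPKM + 1) level in 1 library over the 360 IDs at least 2-fold higher (left) or the 251 IDs at least 2-fold lower (right) in bHLH151-OE than in bhlh151-KO, bars are means of 3 libraries, and crosses are the median over all tested IDs. On the left the 3 bhlh151-KO libraries, at 2.65 to 2.82, stand below the other 15, and on the right, at 3.57 to 3.70, above them.

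Over all calls the picture was the same in kind. bhlh151-KO was farther than bHLH151-OE from the mean of the other 4 groups for 4123 of the 4665 higher IDs (88.4%) and 2835 of the 3847 lower IDs (73.7%). Over all tested IDs this share was 65.1%. The called IDs were chosen on the values of these 2 lines, so their shares are a description. The unequal shares of the directions hung on the scaling of the libraries, at 80.5% and 83.3% under median-of-ratios scaling. In the median, the other 4 groups minus bhlh151-KO came to 0.56 for the higher IDs and -0.47 for the lower IDs on the log2(FPKM + 1) scale. The same 4 groups minus bHLH151-OE came to 0.057 and 0.024, with a sign that changed with the scaling.

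The ID with the largest log2 rise was PAxG11Gg0025800. It stood at 29.0, 34.6 and 37.3 FPKM in the bHLH151-OE libraries and at 0.180, 0.019 and 0 in those of bhlh151-KO, a log2 difference of 5.02 (SE 0.13, limma adjusted p = 3.01e-15). The overexpression libraries were above all others, for WT had 7.98, 5.69 and 6.48 FPKM, and every library of bhlh58-KO, the double knockout and bHLH58-OE was at or under 0.174 FPKM. Of the 799 IDs with the number 11, the letter G and an ID number under 90000, as this one has, only 24 (3.00%) passed the filter on low values, beside 52.9% of those from 90000 up, so its surroundings in the ID order were almost without signal in these roots. The sources used here do not say how reads shared by near-identical copies were counted, so the level of this ID is uncertain.

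PAxG04Ag0162200 had the largest gain in FPKM. It was at 299.9, 267.0 and 334.9 in bHLH151-OE and 42.9, 37.2 and 46.1 in bhlh151-KO, 7.14-fold apart in mean FPKM (log2 difference 2.81, SE 0.14, limma adjusted p = 2.33e-10). WT lay between the lines at 114 ± 22.6 FPKM (SD, n = 3), with the double knockout at 100.3 ± 18.2, bHLH58-OE at 82.3 ± 6.45 and bhlh58-KO at 48.9 ± 6.30. This ID was high in the overexpression line relative to every group, while bhlh151-KO and bhlh58-KO shared the low end and overlapped.

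PAxG10Ag0148900 had the largest log2 fall. Its bHLH151-OE libraries were at 0.319, 0.371 and 0.417 FPKM and its bhlh151-KO libraries at 11.7, 10.5 and 12.1 (log2 difference -3.18, SE 0.12, limma adjusted p = 1.43e-12). All 15 libraries outside bhlh151-KO were at or under 2.72 FPKM, and the double knockout, which also lacks bHLH151, was at 0.729 ± 0.243 (SD, n = 3). The high level was therefore seen in line 40 and not in the other line without bHLH151.

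PAxG05Gg0173800 had the largest loss in FPKM, from 577, 505 and 586 in bhlh151-KO to 266, 227 and 205 in bHLH151-OE (log2 difference -1.26, SE 0.17, limma adjusted p = 6.05e-05). Both lines without bHLH151 were high, with the double knockout at 604 ± 61.3 FPKM (SD, n = 3). The remaining groups were lower, with WT at 277 ± 64.1, bhlh58-KO at 257 ± 18.7 and bHLH58-OE at 324 ± 80.4. WT and bhlh58-KO overlapped with bHLH151-OE, and bHLH58-OE lay just above it, from 267.5 FPKM. The 2-fold lower set thus held IDs of unlike pattern, one shared by both lines without the gene and one seen in line 40.

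**Figure D4:**
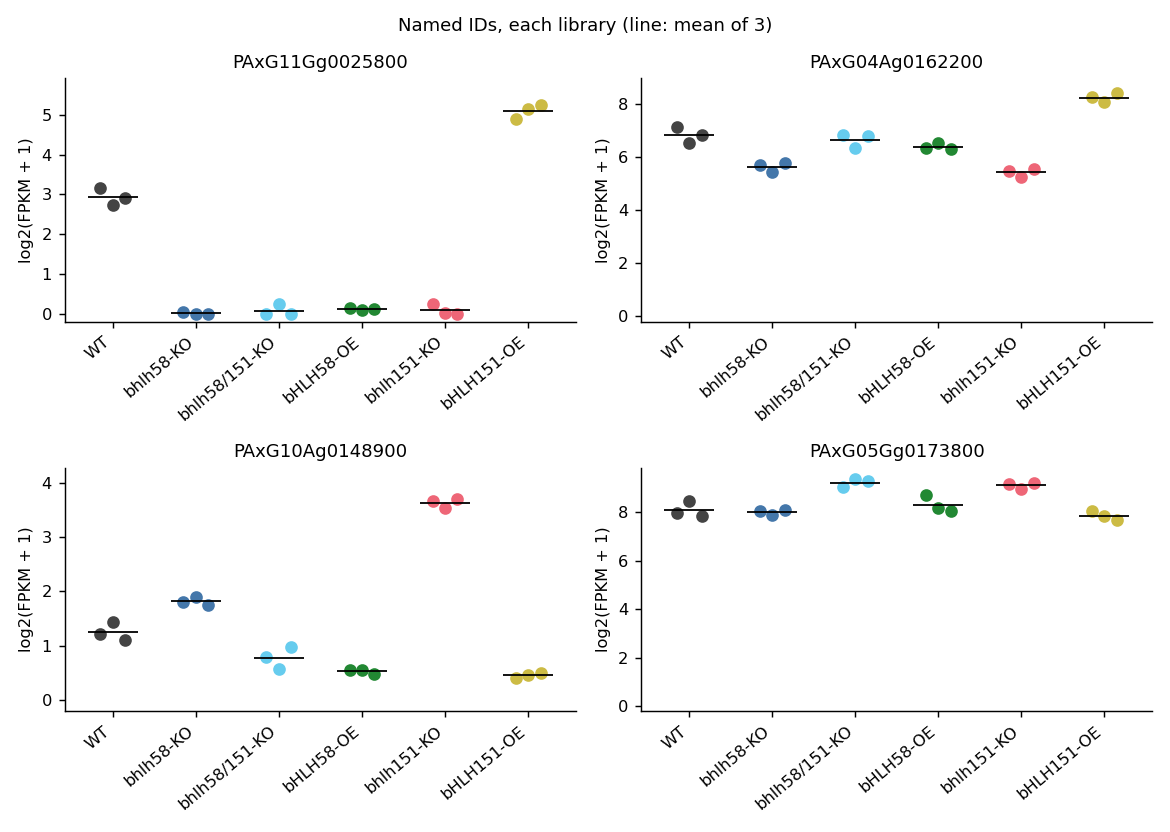
Levels of the 4 named IDs in each of the 18 libraries on the log2(FPKM + 1) scale, with the bar at the mean of 3 libraries. PAxG11Gg0025800 and PAxG04Ag0162200 are highest in bHLH151-OE, PAxG10Ag0148900 is high in bhlh151-KO alone, and PAxG05Gg0173800 is high in bhlh151-KO and the double knockout.

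A second contrast of bHLH151 present against absent can be had from separate libraries, bhlh58-KO against the double knockout, which differ in bHLH151 in a background without bHLH58. It called 3722 IDs, 9.09% of those tested (limma, adjusted p under 0.05), and the lower share of them was 42.0% as deposited but 64.2% under median-of-ratios scaling. The count was 2431 without bhlh58-KO replicate 2 and 2353 without bhlh58/151-KO replicate 2. Of the 251 IDs at least 2-fold lower in bHLH151-OE than in bhlh151-KO, 64 (25.5%, beside 3.81% of all tested IDs) were also called lower with bHLH151 present here, and 14 (5.58%, beside 5.27%) were called higher. Of the 360 IDs at least 2-fold higher, 19 (5.28%, beside 5.27%) were called higher here and 39 (10.8%, beside 3.81%) lower. The share called in the same direction thus stood above that of all tested IDs in the lower set and close to it in the higher set. In the higher set the share called in the opposite direction was the one above that of all tested IDs. This opposite share was 16.1% (beside 5.66%) under median-of-ratios scaling and 6.34% (beside 3.66%) with a pseudocount of 0.1. Under median-of-ratios scaling the same-direction shares were 27.6% for the lower set, beside 5.66% of all tested IDs, and 3.51% for the higher set, beside 3.16%. The share of the lower set was 13.4% (beside 3.66%) with a pseudocount of 0.1 and 40.6% (beside 7.12%) among IDs with a mean of at least 5 FPKM. Across the 40951 IDs, which are not independent replicates, the log2 differences of both contrasts had a Pearson r of 0.054 and a Spearman rho of 0.035.

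The matching contrast for the other factor, bHLH58-OE against bhlh58-KO, also shares no library with the bHLH151 contrast. It does share the bhlh58-KO libraries with bhlh58-KO against the double knockout, where they enter with the opposite sign. A low bhlh58-KO level thus lowers that contrast and raises this one, so the shares in both are not separate observations. bHLH58-OE against bhlh58-KO called 3804 IDs (9.29% of those tested), with 2371 without bHLH58-OE replicate 3 and 2498 without bhlh58-KO replicate 3. Of the 360 IDs at least 2-fold higher in bHLH151-OE, 139 (38.6%, beside 4.37% of all tested IDs) were also higher in bHLH58-OE and 6 (1.67%, beside 4.92%) were lower. With a pseudocount of 0.1 the first share was 24.1% (beside 4.13%). Of the 251 lower IDs, 62 (24.7%, beside 4.92%) were also lower and 16 (6.37%, beside 4.37%) were higher. The opposite share of the lower set thus stood above that of all tested IDs, but with a pseudocount of 0.1 it was 3.72% (beside 4.13%). The sizes were smaller, with a median log2 difference of 0.25 for the higher set, against 1.22 in the bHLH151 contrast, and -0.13 for the lower set, against -1.18. Across all tested IDs, Pearson r was 0.341 and Spearman rho 0.350, given as a description.

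Whether an ID differed by another amount for bHLH151 than for bHLH58 was tested in the same fit, as the bHLH151 difference minus the bHLH58 difference. This called 3310 IDs (8.08% of those tested), 1861 (4.54%) above and 1449 (3.54%) below 0, or 1591 above and 1696 below 0 under median-of-ratios scaling. They included 466 of the 611 IDs (76.3%) with at least a 2-fold bHLH151 difference, 292 higher and 174 lower ones, all with the sign of the bHLH151 difference. Of all 8512 calls, 2664 (31.3%) differed between the factors. These counts are of IDs chosen on part of the same libraries. All 4 named IDs were called, and PAxG11Gg0025800 had an extra log2 difference of 4.92 (SE 0.18, limma adjusted p = 2.59e-12), while its difference between the bHLH58 lines was 0.10 (SE 0.13, limma adjusted p = 0.699). Both bHLH58 lines were close to 0 FPKM for this ID, so that difference could only be small.

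**Figure D5:**
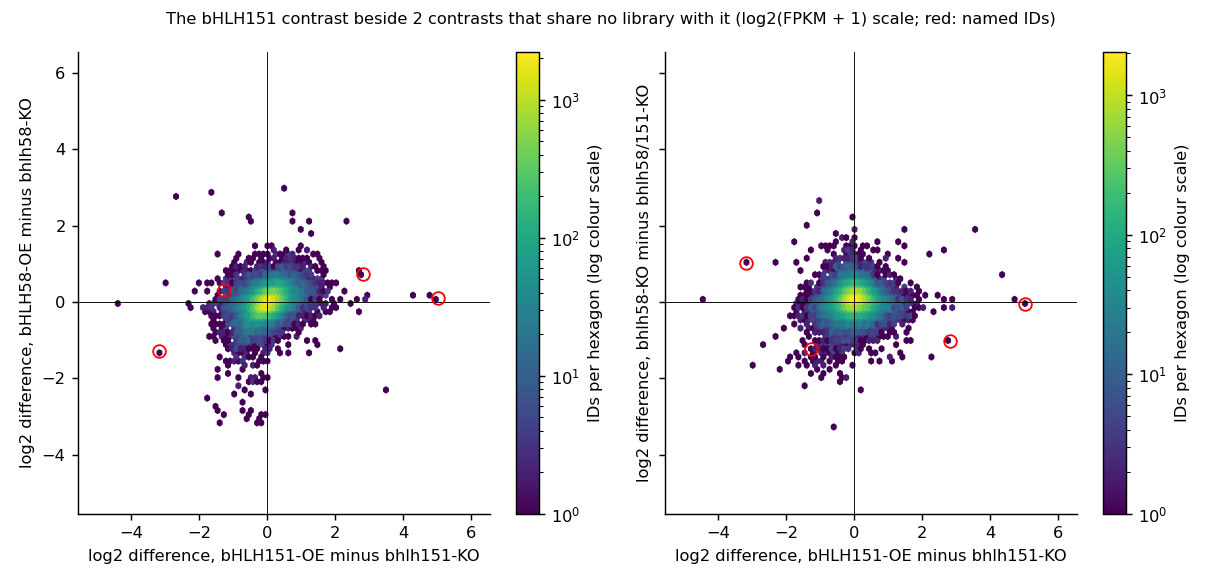
Hexagons count IDs by their log2 difference between bHLH151-OE and bhlh151-KO (horizontal) and, on the vertical axis, between bHLH58-OE and bhlh58-KO (left) or between bhlh58-KO and the double knockout (right), all on the log2(FPKM + 1) scale, with red circles at the 4 named IDs. The cloud on the left is tilted (Pearson r 0.341) and that on the right is not (0.054). Both vertical axes use the bhlh58-KO libraries, with opposite sign.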

How the data were processed

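The deposited table gives 1 FPKM value per ID and library, a unit taken from the name the authors gave the table; its values do not contradict it. DESeq2 appears in the submitters' processing notes without a version or role. Aligner, genome build, annotation and filters: not given in the sources used here. No whole-read step was found in the low values of 15 library pairs (IDs below 0.3 FPKM, at least 3391 per pair, at most 1.38% of ratios in a bin of 0.02 log2), so depth is unknown and no count test was run. Values were analysed as log2(FPKM + 1), which understates changes of low IDs. Group means of the 18 libraries were fitted together with limma 3.58.1 in R 4.3.3 (trend and robust eBayes, 12 residual degrees of freedom), and 4 contrasts were tested. The procedure was tested on simulated data.

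Named IDs were, in each direction, the called ID with the largest log2 difference and the one with the largest FPKM difference, at least 2-fold, with groups not overlapping, 5 FPKM or more on average in the higher group and not all libraries of a group at 0; 300 higher and 197 lower IDs qualified. At most 2 IDs a direction are named because the IDs have no gene names. Gene lists and cell type markers could not be matched for the same reason. The members, lists and tests were chosen with earlier results of these data known. The alternatives tried were no filter, a filter at a mean of 5 FPKM, a pseudocount of 0.1, 3 scalings, plain eBayes, a fit of only the groups compared, a replicate block and leaving out each library.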

Additional observations from a re-analysis of the deposited data

Results flagged for a closer look

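The difference between overexpression and knockout was not the same for both factors in 3310 of 40951 tested IDs, by the test of the difference itself (limma, adjusted p under 0.05). The named IDs were among them, but they were chosen for a large bHLH151 difference, which is itself part of this test. PAxG11Gg0025800 had a log2 difference larger by 4.92 for bHLH151 than for bHLH58 (SE 0.18, limma adjusted p = 2.59e-12), and for PAxG04Ag0162200 the value was 2.06 (SE 0.20, limma adjusted p = 3.39e-06). For PAxG11Gg0025800, whose level is uncertain, every library of bHLH58-OE and bhlh58-KO was at or under 0.106 FPKM. Its bHLH58 difference could only be near 0 on this scale, so the 4.92 mostly repeats its bHLH151 difference. For the lower IDs the values were -1.89 (SE 0.17, limma adjusted p = 4.61e-07) for PAxG10Ag0148900 and -1.56 (SE 0.24, limma adjusted p = 0.000511) for PAxG05Gg0173800. PAxG10Ag0148900 was lower in the overexpression line for both factors, with -3.18 for bHLH151 and -1.29 for bHLH58, and PAxG05Gg0173800 was at -1.26 and 0.31.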

How the results depend on the processing

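The count of 8512 calls ran from 6405 (mean of at least 5 FPKM) to 8858 (median-of-ratios scaling) over the other settings tried, with 6615 in a fit of the 2 lines only, and from 6710 to 7983 with 1 library left out. The count for the difference between the factors ran from 2719 to 3090 with a library left out. For bhlh58-KO against the double knockout it ran from 2353 to 3115 and for bHLH58-OE against bhlh58-KO from 2371 to 3216. The named IDs kept their direction and their calls in every alternative that tested them; PAxG10Ag0148900 fell below the filter at a mean of at least 5 FPKM and was not tested there. The numbers of 2-fold higher and lower IDs were 867 and 591 with a pseudocount of 0.1; the lower one was 138 at a mean of at least 5 FPKM and 381 after rescaling to TPM.

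The median distance of the other 4 groups from bhlh151-KO, 0.56 for the higher and -0.47 for the lower IDs, was 0.69 and -0.52 with a pseudocount of 0.1, 0.51 and -0.43 at a mean of at least 5 FPKM, 0.48 and -0.51 under median-of-ratios scaling, 0.50 and -0.51 under quantile normalization, and 0.60 and -0.58 in a fit of the 2 lines only. It was 0.63 for the higher IDs after rescaling to TPM and -0.49 for the lower IDs with plain eBayes. The distance from bHLH151-OE was -0.025 and -0.041 under median-of-ratios scaling, 0.023 and -0.0064 under quantile normalization, and -0.030 for the lower IDs in the fit of 2 lines. The cause was not tested. With a library left out, these medians ran from 0.55 to 0.61 and from -0.59 to -0.44 for bhlh151-KO, and from 0.011 to 0.069 and from -0.041 to 0.098 for bHLH151-OE. The surplus of 428 IDs at 1 FPKM or more lay between 340 and 571 with a library left out, and was 297 on the TPM scale and 220.0 with median-of-ratios factors.

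With the replicate number as a block, 8329 IDs were called in the bHLH151 contrast. Deviations of same-numbered libraries from their group means correlated at -0.17, -0.055 and 0.011 for numbers 1, 2 and 3. Those of libraries with unlike numbers correlated at -0.094 to 0.15. With 3 libraries a group, these values cannot show whether the number marks a shared batch, and the labels do not say. No library pair was therefore taken as matched. Unknown depth limits what can be said of low IDs.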

Other observations

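Of the 1393 IDs with the number 11 and the letter G, 338 (24.3%) passed the filter on low values, while the share ran from 50.1% to 63.1% over the other 37 combinations of number and letter. The low share came from ID numbers under 90000, a bound set after the values were seen. There 24 of 799 IDs (3.00%) passed, and from 90000 up 314 of 594 (52.9%) did. For the letter A the shares were 49.8% and 56.0%. This was so over all 18 libraries together and is not a difference between bHLH151-OE and bhlh151-KO. PAxG11Gg0025800, the ID with the largest log2 rise, is 1 of those 24.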
